A study of Mus musculus with 8 samples.

Results

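Lysosomal genes were followed in 2 kinds of cell cut by laser out of frozen mouse yolk sac sections: 42 genes for hydrolases, membrane proteins and the proton pump, without the cathepsins. The members were chosen by gene symbol, and every probe set (a group of short probes for 1 transcript) annotated to 1 of them was used. Probe sets were named for 39 of the 42 members, out of 12393 genes named on the array, and 38 members were bright enough to be tested. Cd63, Arsb and Atp6v0c had no probe set named here and were not analysed.

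The study compared primitive erythroid precursors, the first red cell precursors of the embryo, with epithelial cells of the same yolk sacs at embryonic day 9.5. All samples came from FVB/N mice, with no treatment or engineered allele named in the labels. There were 4 erythroid and 4 epithelial captures in 4 pairs, a pair sharing its microscope slides, and each replicate pooled 2 to 4 yolk sacs from 2 litters. RNA of each capture was amplified in 2 rounds and read on 1 Affymetrix 430A 2.0 array. The labels give 2 to 3 laser pulses per erythroid cell and 1 per epithelial cell, which cannot be told apart from cell type. A capture is a small piece of a section and can hold neighbouring cells, and fewer cells of a type cannot be told apart from less RNA per cell.

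The lysosome is the acidic compartment in which cells break down material taken up from outside and worn-out parts of their own. Soluble hydrolases each cleave 1 kind of bond in sugars, lipids or proteins, membrane proteins export the products and protect the membrane, and the vacuolar proton pump (V-ATPase) keeps the interior acidic. The epithelium that faces the outside of the mouse yolk sac, the visceral endoderm, takes up maternal proteins and lipids and digests them in large lysosomes. Maturing red cells, in contrast, clear their organelles.

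As checks of the captures, Klf1 and Gata1, red cell transcription factors, rose in the erythroid captures by 2.49 ± 0.30 and 2.05 ± 0.32 on the log2 scale (SE, n = 4 pairs). The endocytic receptor Cubn and the lipoprotein Apoa1, both made by visceral endoderm, fell by 1.35 ± 0.14 and by 1.22 ± 0.10. Of 10 erythroid markers 9 were called higher, and of 11 visceral endoderm markers 9 were called lower. The endoderm markers not called were Ttr, at -0.20 ± 0.07 (limma, adjusted p = 0.0829), and Afp, at -0.16 ± 0.09 (0.249). Their mean signals were nearly level, at 28477 and 26340 in the erythroid and 29130 and 26125 in the epithelial captures. The exception among the erythroid markers was the embryonic globin Hbb-bh1, at -0.11 ± 0.07 by the fit (adjusted p = 0.348). On the normalised scale it was lower in the erythroid capture in 3 of 4 pairs. Its deposited signals were 39712, 42134, 56375 and 21386 in the erythroid and 42436, 37646, 43815 and 23031 in the epithelial captures. These lie near the highest signals of the arrays (24645 to 58408), where a difference may not show. The Gapdh control's 3' to 5' signal ratio lay between 38.7 and 44.4 on the arrays of pairs 1 and 2 and between 7.0 and 17.4 on those of pairs 3 and 4, so values within these sets are given beside several results.

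Many lysosomal genes had lower signals in the erythroid captures than in the epithelium, and none was called higher. Of 38 members tested, 17 fell, 0 rose and 21 were not called, where 8.87% of all 7191 genes tested were called lower and 6.02% higher (limma, adjusted p under 0.05). At an unadjusted p under 0.05, 24 members were lower and 1, Gusb, higher, where 16.8% of all genes were lower and 14.3% higher. The median log2 difference over the 38 members was -0.56, against -0.01 over all genes tested. The catalytic sector of the proton pump had 6 of 8 subunits called lower, its membrane sector 3 of 5, and the hydrolases 4 of 17. The difference between these classes was not tested. The largest falls were those of the cholesterol transporter Npc1 (by 1.83 ± 0.36) and the glycosidase Manba (by 1.61 ± 0.27).

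These counts depend on the pairs and on the fit. Without pair 3 or without pair 4, 7 members were called lower, where 4.74% and 3.38% of all genes were. Without pair 1 there were 13 (7.93% of all genes) and without pair 2 there were 12 (8.26%). With no term for the pair 2 were called, Manba and Atp6v1e1 (2.95% of all genes), and without a variance trend 2 (3.42%). The calls of Hexa, Manba, Npc1, Lamp1 and Atp6v1e1 held in each of the 4 fits that left out a pair. In pairs 1 and 2 alone 8 members were called lower (5.51% of all genes lower, 3.42% higher), and in pairs 3 and 4 alone 19 (14.1% lower, 12.6% higher).

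On the normalised scale, all 4 erythroid values lay below all 4 epithelial values for 13 of the 38 members, where 8.39% of all genes tested showed this, and for 0 members the reverse held, as it did for 5.9% of all genes. For 24 members the erythroid capture was lower in 4 of 4 pairs, where 20.3% of all genes were. The 9 visceral endoderm markers called lower moved in the same direction as the members, and their part in the result was not tested. The summed signal of all 11 endoderm markers was 53670 to 91134 on the erythroid and 85682 to 148546 on the epithelial arrays. That sum includes the bright Ttr and Afp, which were not called.

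**Figure D1:**
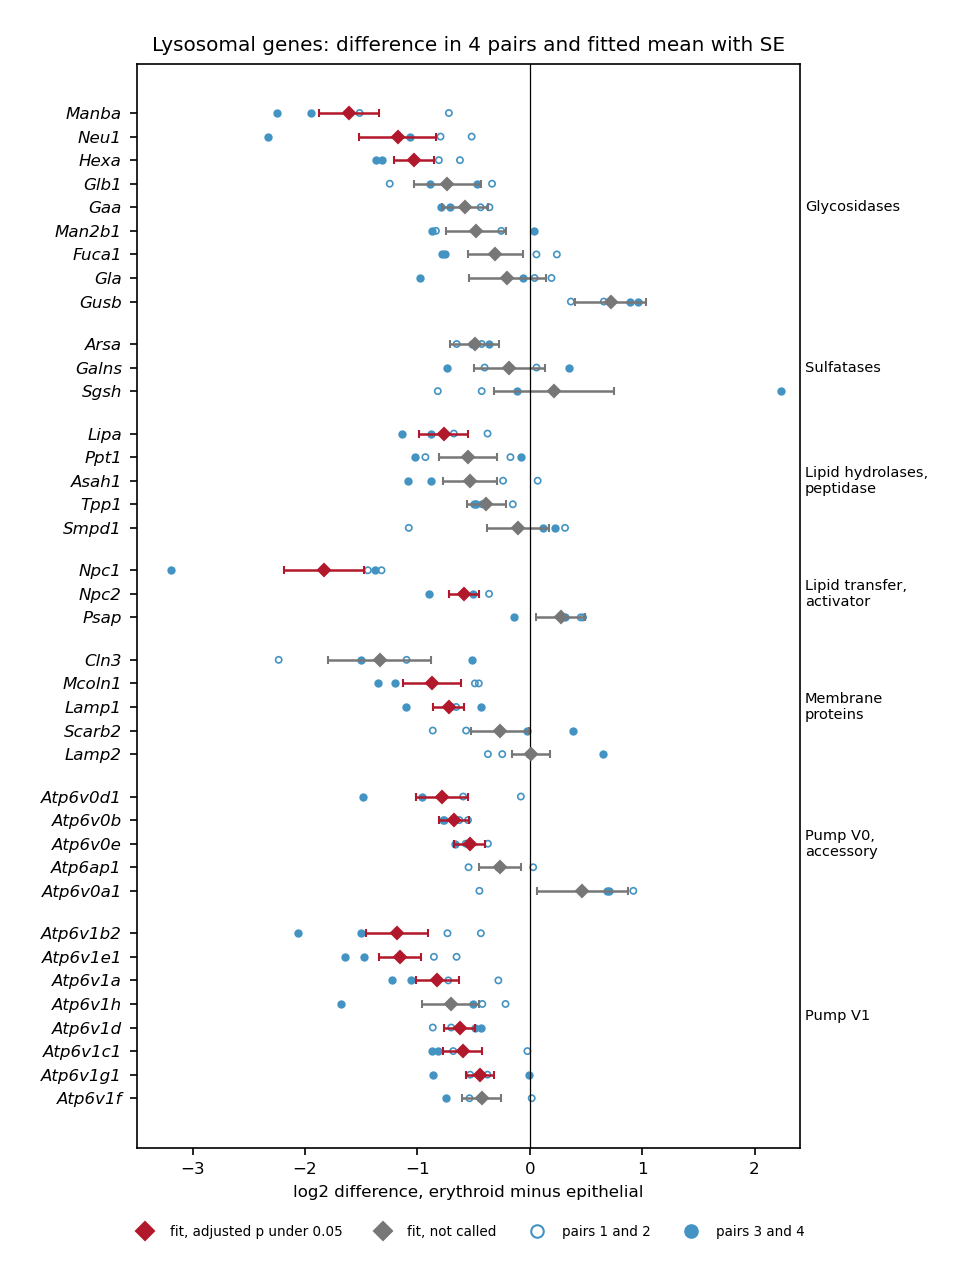
Log2 difference between the erythroid and the epithelial capture (horizontal axis, erythroid minus epithelial) for the 38 tested members, grouped by role. Diamonds with bars are the fitted mean and its SE (red where the adjusted p was under 0.05), and circles are the 4 pairs (open for pairs 1 and 2, filled for pairs 3 and 4); 33 of the 38 diamonds lie below 0, and the 8 subunits of the pump's catalytic sector all do.

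Promoters of these genes were read because several members moved together and because Tfeb and its relatives, the regulators of lysosomal genes, are known to bind a palindromic element with the core CACGTG. RefSeq promoter entries (GRCm38.p6, 250 bases before to 50 after the start) matched 35 of the 42 members. The core stood in the promoters of 12 of these 35 (34.3%), against 12.6% of 5879 tested genes and 8.09% of all 27025 genes with an entry. The longer form TCACGTGA stood in 6 of 35 (17.1%), against 2.55% of tested genes and 1.12% of all genes, and GTCACGTGAC in 1 of 35. Each motif reads the same on both strands, and the longer forms contain the shorter. Of the members called lower, 6 of 13 with an entry held the core, as did 6 of 18 tested and not called. The members were chosen by symbol as lysosomal genes, and the element is known from regulators of such genes. The shares over all members therefore describe the list and say nothing about a difference between the captures. A match describes the letters in this window and is not evidence of binding.

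The windows below are those of the 6 called members with a match, and of Cln3 and Gla as examples that were not called. They run 5′ to 3′ on the gene's strand, with the motif in capitals. Lamp1 holds 4 copies of the core between positions -61 and -10, all before the start site, and the single copy of Atp6v0d1 spans its start.
Lamp1 (chr8:13159080-13159171, plus strand): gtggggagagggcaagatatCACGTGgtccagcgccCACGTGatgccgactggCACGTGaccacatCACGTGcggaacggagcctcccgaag
Mcoln1 (chr8:3500428-3500500, plus strand): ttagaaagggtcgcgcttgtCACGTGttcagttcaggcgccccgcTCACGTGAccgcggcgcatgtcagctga
Atp6v0b (chr4:117887322-117887385, minus strand): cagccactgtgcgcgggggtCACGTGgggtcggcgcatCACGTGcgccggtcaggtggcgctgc
Atp6v0d1 (chr8:105566053-105566088, minus strand): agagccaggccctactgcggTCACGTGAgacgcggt
Atp6v0e (chr17:26676378-26676407, plus strand): gcggggctttagcgcgccgaTCACGTGAgc
Atp6v1a (chr16:44139364-44139411, minus strand): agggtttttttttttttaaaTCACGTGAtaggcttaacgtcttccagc
Cln3 (chr7:126583330-126583405, minus strand): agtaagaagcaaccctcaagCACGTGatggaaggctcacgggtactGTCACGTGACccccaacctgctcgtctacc
Gla (chrX:134601173-134601253, minus strand): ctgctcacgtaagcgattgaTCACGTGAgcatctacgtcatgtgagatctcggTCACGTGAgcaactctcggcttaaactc

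The glycosidases, which trim sugars from glycoproteins, glycolipids and glycosaminoglycans, gave 3 of 9 tested genes lower and 0 higher, with a median of -0.57. Manba, which removes mannose from glycoprotein sugars, was deposited at signals of 311, 675, 176 and 324 for erythroid pairs 1 to 4 and of 863, 1183, 792 and 1232 in the epithelial captures. All erythroid values lay below all epithelial values, a 3.05-fold difference by the fit (adjusted p = 0.00394), and the call held under every alternative tried. Hexa, the alpha chain of the hexosaminidase that degrades the ganglioside GM2, had erythroid signals of 1483, 1848, 1793 and 2133 and epithelial signals of 2372, 3335, 4670 and 5219. Its groups did not overlap, and it fell by 1.03 ± 0.18 (adjusted p = 0.00486), with no call when the pair term was left out (adjusted p = 0.0570) or the variance trend (0.0513).

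Neu1, the sialidase that removes sialic acid, had erythroid signals of 107, 117, 97.4 and 257 against epithelial signals of 154, 187, 464 and 526. The erythroid array of pair 4 lay above the epithelial arrays of pairs 1 and 2, so the groups overlapped. Neu1 fell by 1.18 ± 0.34 (adjusted p = 0.0457), by 0.66 over pairs 1 and 2 but by 1.70 over pairs 3 and 4, and its call ended without pair 1 (adjusted p = 0.0529), without pair 3 (0.170) and without pair 4 (0.180).

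Gusb, the beta-glucuronidase of glycosaminoglycan breakdown, ran the other way, at 182, 133, 286 and 231 in the erythroid and 120, 99.7, 125 and 77.0 in the epithelial captures. It was higher in 4 of 4 pairs, with deposited signals that did not overlap, but its log2 difference of 0.72 ± 0.32 did not pass (adjusted p = 0.161). The other glycosidases were not called. Glb1, a beta-galactosidase, was at -0.74 ± 0.30 (adjusted p = 0.126), Gaa, which degrades glycogen, at -0.57 ± 0.20 (0.0874) and the alpha-mannosidase Man2b1 at -0.48 ± 0.26 (0.256). A less bright probe set of Gaa was called, at -0.85 ± 0.25 (adjusted p = 0.0471), and so was the mean of the gene's 2 probe sets (-0.71, adjusted p = 0.0382). The fucosidase Fuca1 and the alpha-galactosidase Gla were at -0.31 and -0.20, with 95% intervals of -0.85 to 0.23 and -0.95 to 0.55. Galc, which degrades galactosylceramide, was too dim to be tested on its 3 probe sets, with mean signals of 33.0 to 43.4 in the erythroid and 36.4 to 59.9 in the epithelial captures.

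**Figure D2:**
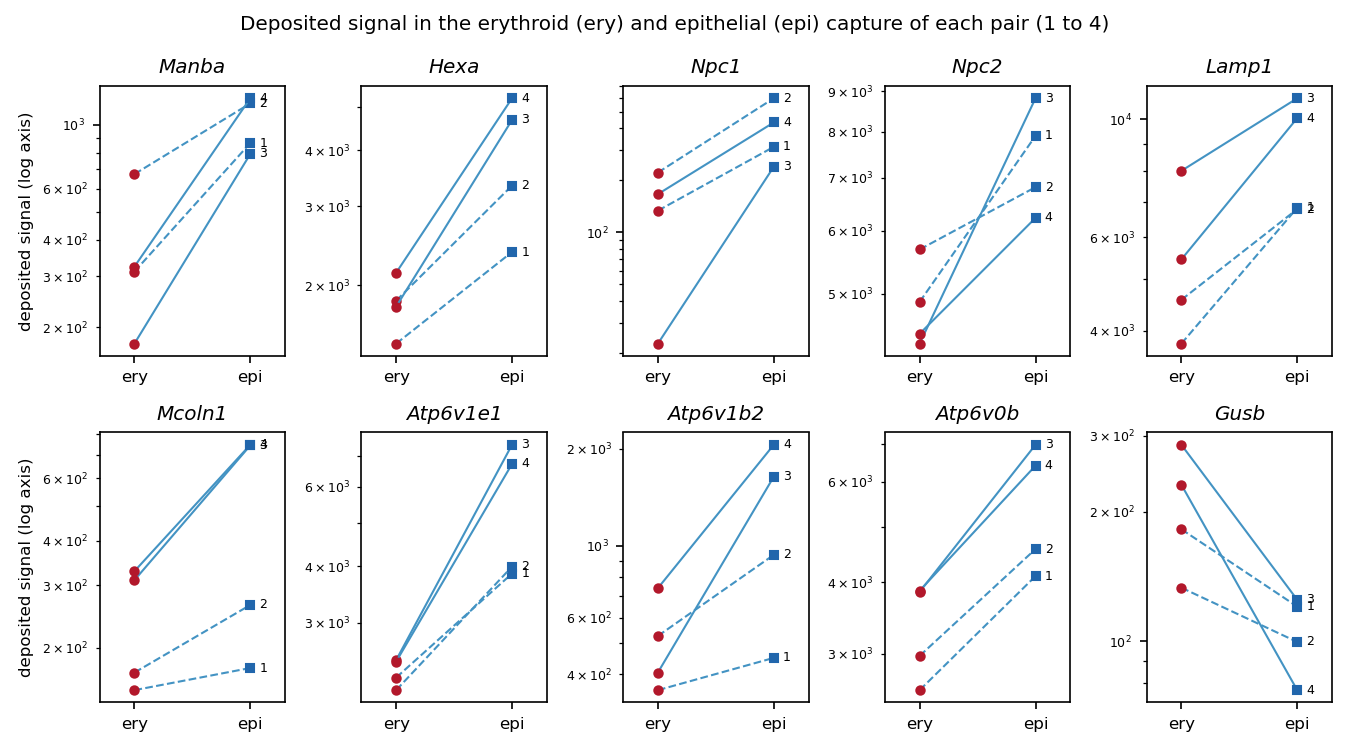
Deposited signal (vertical axis, log scale, its range set for each gene) of 10 members in the erythroid (circles) and epithelial (squares) capture of each pair, joined by a line that is dashed for pairs 1 and 2 and solid for pairs 3 and 4. The epithelial signal is higher in every pair for the first 9 genes, and Gusb, at 182, 133, 286 and 231 in erythroid captures, is higher there in every pair.

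Of the enzymes that remove sulfate groups, 3 were tested and 0 were called, with 1 at an unadjusted p under 0.05. Arsa, which degrades the myelin lipid sulfatide, had signals of 286, 417, 330 and 236 in the erythroid and 415, 603, 397 and 309 in the epithelial captures. It was lower in 4 of 4 pairs, with overlapping groups, at -0.49 ± 0.22 (adjusted p = 0.158). Sgsh, the sulfamidase of heparan sulfate breakdown, had erythroid signals of 135, 96.9, 134 and 124 and epithelial signals of 152, 191, 14.2 and 103. The epithelial array of pair 3 stood far below the others, and the difference of 0.22 ± 0.53 (adjusted p = 0.824) became -0.45 without that pair. Galns, which acts on keratan and chondroitin sulfate, was at -0.18 ± 0.32.

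The lipid hydrolases, with the thioesterase Ppt1 and the peptidase Tpp1, had 5 of 5 values below 0 and 1 call. Over all genes tested, 3623 of 7191 values lay below 0 and 8.87% were called lower. Lipa, the acid lipase that frees cholesterol from its esters, was at 534, 400, 321 and 372 in the erythroid and 656, 686, 665 and 671 in the epithelial captures, without overlap. It fell by 0.77 ± 0.22 (adjusted p = 0.0420) on the probe set read here. The call ended without pair 2 (adjusted p = 0.0807), pair 3 (0.139) or pair 4 (0.175), and the other tested probe set of Lipa was at 0.20 ± 0.29. Its value is therefore uncertain.

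Ppt1, which strips palmitate from proteins, had erythroid signals of 219, 198, 268 and 491 and epithelial signals of 216, 408, 512 and 500. The groups overlapped, and the difference was -0.55 ± 0.26 (adjusted p = 0.179). The ceramidase Asah1 (-0.53 ± 0.24), the peptidase Tpp1 (-0.39 ± 0.18) and the sphingomyelinase Smpd1 (-0.11 ± 0.28) were not called. Smpd1 was lower in the erythroid capture only in pair 1 (-1.08) and higher in 3 of 4 pairs. Asah1 was at -0.08 over pairs 1 and 2 but at -0.98 over pairs 3 and 4, where alone it was called (adjusted p = 0.00824).

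Npc1 and Npc2 hand cholesterol from the lysosome's interior to its membrane and out, and both fell. Npc1, the membrane-bound partner, had erythroid signals of 134, 222, 22.7 and 166 and epithelial signals of 312, 597, 240 and 432. All epithelial values lay above all erythroid values, a 3.56-fold difference by the fit (adjusted p = 0.00791). The erythroid array of pair 3 lay below the background level, so the size there is uncertain; without pair 3 Npc1 fell by 1.38 (adjusted p = 0.0172). Npc2, the soluble partner, was at 4883, 5686, 4326 and 4452 in the erythroid and 7906, 6814, 8818 and 6231 in the epithelial captures, again without overlap. It fell by 0.59 ± 0.13 (adjusted p = 0.0156), and its call ended without pair 3 (0.0838) and without pair 4 (0.0574). A second probe set of Npc2 fell by 0.90 ± 0.21.

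Psap, the precursor of the saposins that present lipids to hydrolases, was at 0.27 ± 0.22 (adjusted p = 0.440), with a 95% interval of -0.21 to 0.76. It was higher in the erythroid capture in 3 of 4 pairs.

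Among the other membrane proteins, 2 of 5 tested were called lower. Lamp1, a major glycoprotein of the lysosome's membrane, had erythroid signals of 3783, 4573, 7997 and 5449 and epithelial signals of 6814, 6776, 10952 and 10050. Only the erythroid array of pair 3 reached into the epithelial range, and within each pair the erythroid capture was lower. Lamp1 fell by 0.72 ± 0.14 (adjusted p = 0.00685), by 0.68 over pairs 1 and 2 but by 0.77 over pairs 3 and 4.

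Mcoln1, the cation channel that releases lysosomal calcium, was at 152, 170, 310 and 328 in the erythroid and 175, 264, 743 and 746 in the epithelial captures. The epithelial arrays of pairs 3 and 4 stood above all other arrays, and the groups overlapped. Mcoln1 fell by 0.87 ± 0.26 (adjusted p = 0.0471), with no call without pair 2 (adjusted p = 0.0501), pair 3 (0.175) or pair 4 (0.234). Cln3, a membrane protein lost in juvenile Batten disease, was at 14.2, 60.9, 158 and 83.6 in the erythroid and 80.7, 154, 194 and 243 in the epithelial captures, above background on 1 and 3 arrays, and its difference of -1.34 ± 0.46 was not called (adjusted p = 0.0763). Scarb2, which carries glucocerebrosidase to the lysosome, was at -0.27 ± 0.26, with -0.72 over pairs 1 and 2 but 0.18 over pairs 3 and 4.

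Lamp2, the second major membrane glycoprotein, which is made in several splice forms, gave 4 unlike readings. Its brightest probe set was at 7653, 8177, 5238 and 4576 in the erythroid and 11068, 8316, 5578 and 3297 in the epithelial captures, with overlapping groups and a difference of 0.01 ± 0.17. The others were at -0.37 ± 0.15, -0.98 ± 0.30 and -0.98 ± 0.20, and the last was called (adjusted p = 0.00910). As the mean of its probe sets Lamp2 was called, at -0.58 (adjusted p = 0.0362). Which splice forms each probe set reads was not tested.

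The membrane sector of the proton pump (V0) carries protons across the membrane, and 3 of its 5 tested members fell. Atp6v0d1, which couples the sector to the rotor stalk, was at 857, 893, 1213 and 1813 in the erythroid and 865, 1410, 3548 and 3471 in the epithelial captures. In pair 1 the 2 captures were nearly level, and the epithelial arrays of pairs 3 and 4 stood highest. It fell by 0.78 ± 0.23 (adjusted p = 0.0484), the call closest to the threshold, by 0.34 over pairs 1 and 2 but by 1.22 over pairs 3 and 4. The call ended without pair 2 (0.0791), pair 3 (0.194) or pair 4 (0.197).

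Atp6v0b, a proteolipid of the proton-carrying ring, was at 2589, 2973, 3849 and 3867 in the erythroid and 4101, 4574, 6967 and 6404 in the epithelial captures. The deposited signals did not overlap, and it fell by 0.68 ± 0.13 (adjusted p = 0.00847), with no call without pair 4 (0.0554). Its other tested probe sets were at -0.63 ± 0.24 and -0.09 ± 0.23. Atp6v0e, a small subunit of the sector, fell by 0.54 ± 0.14 (adjusted p = 0.0257), with no call without pair 1 (0.0697), pair 3 (0.0859) or pair 4 (0.122). The accessory subunit Atp6ap1 was at -0.27 ± 0.19 (0.382). Atp6v0a1, an isoform of the subunit that forms the proton path, was at 0.47 ± 0.41 (0.487), from a probe set above background on 3 erythroid and 2 epithelial arrays.

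The catalytic sector (V1) splits ATP to drive the pump, and 8 of its 8 members had values below 0, of which 6 were called, with a median of -0.66. Atp6v1b2, a subunit of the ATP-binding head, was at 358, 526, 405 and 740 in the erythroid and 450, 938, 1637 and 2055 in the epithelial captures. The epithelial arrays of pairs 3 and 4 stood apart from the other 6 arrays, and the groups overlapped. It fell by 1.18 ± 0.28 (adjusted p = 0.0179), by 0.58 over pairs 1 and 2 but by 1.78 over pairs 3 and 4, with no call without pair 3 (0.0774) or pair 4 (0.109).

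Atp6v1e1, part of the stalk that holds the head in place, was at 2272, 2131, 2483 and 2465 in the erythroid and 3857, 3995, 7425 and 6734 in the epithelial captures. The 4 erythroid values lay close together and below all epithelial values, and the gene fell by 1.16 ± 0.19 (adjusted p = 0.00355). Its other tested probe set gave -0.07 ± 0.24, and as the mean of both the gene was at -0.61 (adjusted p = 0.0530), so its size is uncertain.

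Of the other subunits, Atp6v1a, which carries the catalytic sites, fell by 0.82 ± 0.19 (adjusted p = 0.0180), Atp6v1d of the rotor by 0.62 ± 0.14 (0.0143), Atp6v1c1 by 0.60 ± 0.18 (0.0471) and Atp6v1g1 by 0.45 ± 0.13 (0.0404). Leaving out 1 pair ended each of these calls. Atp6v1a lost it without pair 3 (0.0828) and pair 4 (0.106), and Atp6v1d without pair 2 (0.0566). Atp6v1c1 lost it without pairs 1, 3 and 4 (0.116, 0.165 and 0.201), and Atp6v1g1 without pairs 1, 2 and 3 (0.0986, 0.0752 and 0.193). Atp6v1h, a regulatory subunit, and Atp6v1f were at -0.71 ± 0.25 and -0.43 ± 0.17 and were not called (0.0867 and 0.123).

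**Figure D3:**
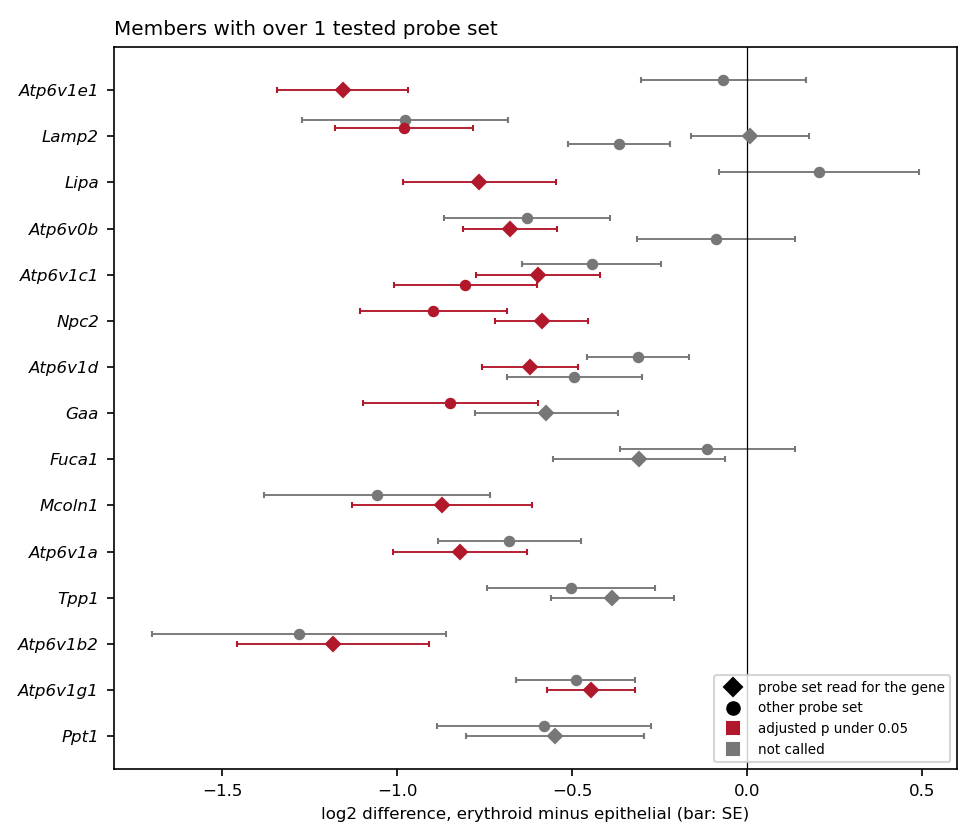
Log2 difference (horizontal axis, erythroid minus epithelial, bar: SE) on each tested probe set of the 15 members that have more than 1. Diamonds mark the probe set read for the gene and red marks an adjusted p under 0.05; Lamp2 runs from -0.98 to 0.01, and Atp6v1e1 and Lipa have a second probe set at -0.07 and 0.20.

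Over probe sets in place of genes, 21 of the 58 tested for the members were called lower and 0 higher, where 7.69% of all 11449 probe sets tested were lower and 6.19% higher. With the arrays centred on their medians in place of quantile normalisation, 17 members were lower and 0 higher, where 11% of all genes were lower. That scaling moved the median of all probe sets from 0.02 to -0.11 and the share of all calls that were higher from 44.6% to 29.3%. Of 15 members with more than 1 tested probe set, 2 (Lipa and Lamp2) had readings of both signs. Of the 17 calls, 6 had an adjusted p between 0.04 and 0.05.

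Most members had a more negative difference in pairs 3 and 4 than in pairs 1 and 2. The median over the 38 members was -0.47 over pairs 1 and 2 but -0.69 over pairs 3 and 4. Of the 17 members called lower, 15 had the larger fall in pairs 3 and 4, and so had 86.8% of all 638 genes called lower, so the members' share lies near that background. The test of this difference (limma, cell type by set of pairs) called 0 of 38 members, with 8 at an unadjusted p under 0.05, where it called 2% of all genes and 13.6% lay at an unadjusted p under 0.05. With arrays centred on their medians it called Atp6v1b2 (adjusted p = 0.0258). The sets of pairs differ in the 3' to 5' ratios given above, and also in how far the cell type markers differed between captures. Klf1 was at 1.74 over pairs 1 and 2 but at 3.23 over pairs 3 and 4, and Cubn at -1.07 but -1.64. The 9 erythroid markers called higher and the 9 visceral endoderm markers called lower all had the larger difference in pairs 3 and 4. The part of that ratio, or of neighbouring cells in the captures, in these values was not tested.

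**Figure D4:**
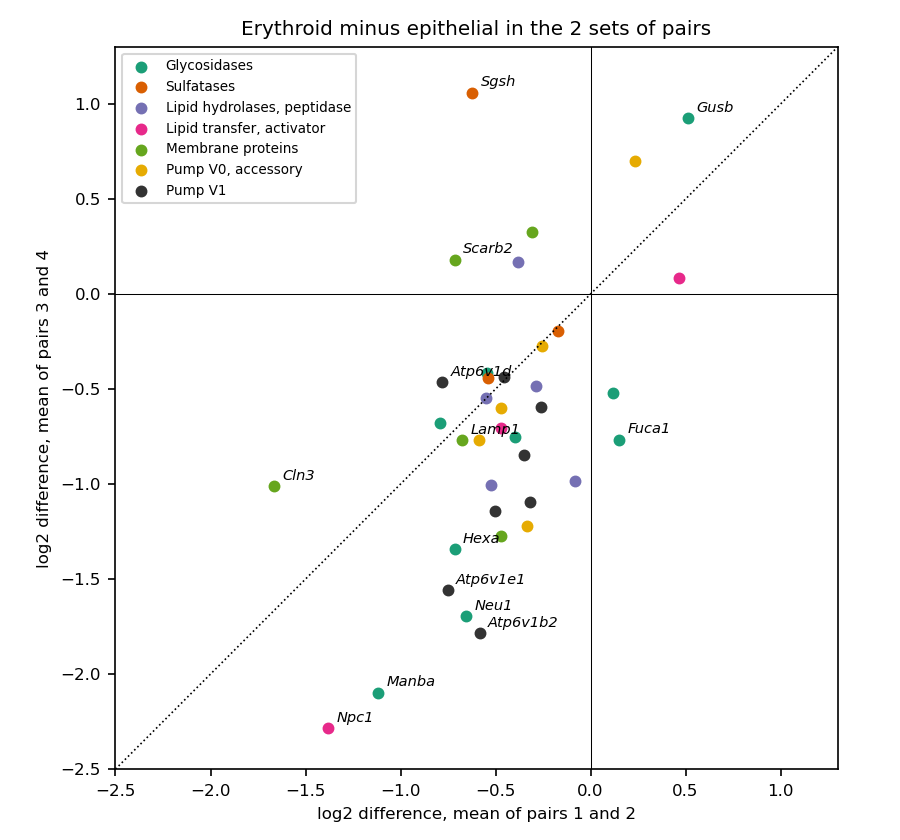
Log2 difference, erythroid minus epithelial, of the 38 tested members as the mean of pairs 1 and 2 (horizontal axis) and of pairs 3 and 4 (vertical axis), coloured by role, with a dotted line where both are equal. Most points lie below the line, with Npc1 and Manba lowest, and Sgsh stands alone at -0.62 and 1.06.

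Other genes of the pathway were read from lists. Of 14 further lysosomal hydrolases and membrane proteins tested, 1 fell and 1 rose by limma, with a median of -0.51. These shares of calls lie near those of all genes (8.87% lower and 6.02% higher). At an unadjusted p under 0.05, 6 of the 14 were lower and 1 higher, where 16.8% of all genes were lower and 14.3% higher. Lgmn, an asparagine-specific protease, fell by 1.53 ± 0.34 (adjusted p = 0.0153), with no call without pair 3 (0.0769) or pair 4 (0.104). Acp5, the tartrate-resistant acid phosphatase, was higher by 0.90 ± 0.22 (adjusted p = 0.0233) in 4 of 4 pairs, with no call without pair 3 (0.0974), without pair 4 (0.147) or with arrays centred on their medians (0.0635).

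The genes that sort hydrolases and carry vesicles to the lysosome gave 5 of 24 lower and 0 higher by limma, with a median of -0.43 (12 lower and 0 higher at an unadjusted p under 0.05). Over all genes 8.87% were called lower, and 16.8% were lower at an unadjusted p under 0.05. The Golgi sorting adaptor Gga2 fell by 1.57 ± 0.20 (adjusted p = 0.00140) and the late endosome fusion protein Stx7 by 1.34 ± 0.15 (0.00102). Vps26a and Vps35, subunits of the retromer that returns sorting receptors to the Golgi, fell by 0.86 ± 0.16 and by 0.55 ± 0.13, and the fusion protein Vamp8 by 0.74 ± 0.17. Vamp8 lost its call without pair 3 (0.0876) or pair 4 (0.0796), and so did Vps35 (0.0606 and 0.0651). As the mean of its tested probe sets Vps35 was at -0.36 and not called (adjusted p = 0.261), so its size is uncertain. The mannose 6-phosphate receptors, which bring hydrolases from the Golgi, were not called, with M6pr at -0.04 ± 0.28 and Igf2r at -0.31 ± 0.25.

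Of 13 tested genes for lysosomal transcription factors and for the complex that docks the growth kinase mTORC1 on the lysosome, 2 fell and 0 rose by limma. Over all genes 8.87% were called lower and 6.02% higher. At an unadjusted p under 0.05, 2 of the 13 were lower and 0 higher, where 16.8% of all genes were lower and 14.3% higher. The 2 called genes were Flcn, a regulator of that docking, which fell by 0.75 ± 0.17 (adjusted p = 0.0143), and the anchor Lamtor1, by 0.48 ± 0.12 (0.0235). Flcn lost its call without pair 4 (0.0854), and Lamtor1 without pair 2 (0.0851), without pair 4 (0.0929), and under both other scalings, the deposited one (0.0591) and median centring (0.0981). Tfeb itself was at -0.66 ± 0.41 (adjusted p = 0.316), with 0.08 over pairs 1 and 2 but -1.39 over pairs 3 and 4.

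Of 14 further pump subunits and assembly factors measured, 7 were tested, and 2 fell, where 8.87% of all genes were called lower. At an unadjusted p under 0.05, 2 of the 7 were lower and 0 higher, where 16.8% of all genes were lower and 14.3% higher. The accessory subunit Atp6ap2 fell by 0.66 ± 0.12 (adjusted p = 0.00652), with no call under the deposited scaling (0.0720) or with arrays centred on their medians (0.117), and Dmxl1, an assembly factor, by 0.84 ± 0.19 (0.0148), with no call without pair 1 (0.0558), pair 3 (0.0606) or pair 4 (0.0514). The tissue-restricted isoforms Atp6v1b1, Atp6v1c2 and Atp6v1g2 lay above background on 0 of 8 arrays on their brightest probe sets. The cathepsins, a family of mostly lysosomal proteases, gave 6 of 8 lower and 1 higher, where 8.87% of all genes were lower and 6.02% higher. Ctsh fell by 1.59 ± 0.19 and Ctsz by 1.40 ± 0.20, and Ctse was higher by 1.60 ± 0.32, with no call without pair 4 (0.0672).

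**Figure D5:**
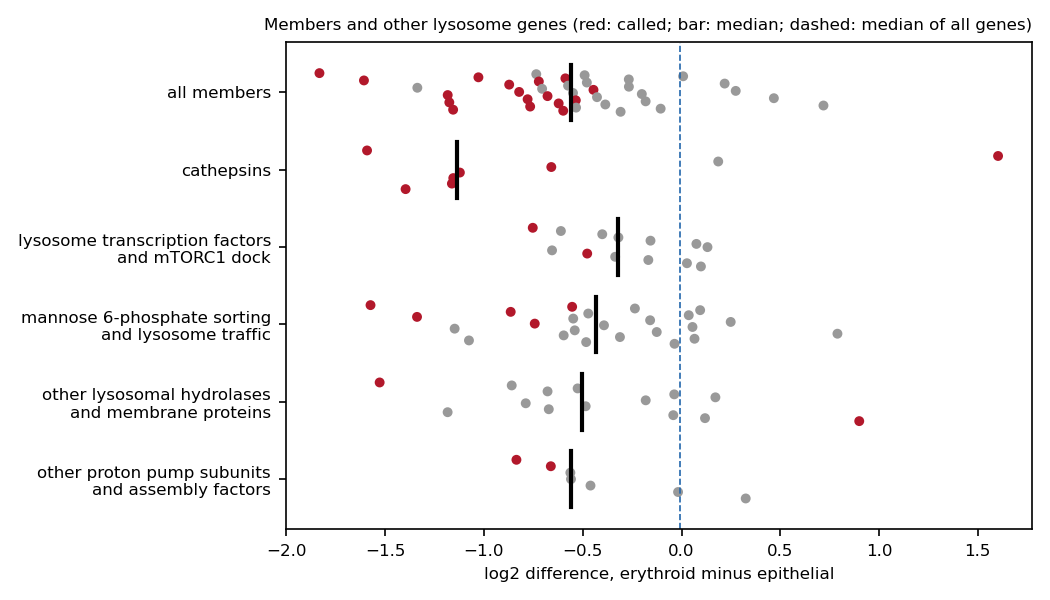
Log2 difference (horizontal axis, erythroid minus epithelial) of each tested member and of the tested genes of 5 other lysosome lists, 1 point per gene (red where called; spread vertically only for legibility), with the median of each list as a bar. The members' median is -0.56 and that of the cathepsins -1.14, and the dashed line marks the median of all genes tested, -0.01.

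Macrophages are rich in lysosomes, so their markers were read in both captures. Of 14 markers, 7 were tested, and limma called 0 of them higher, where 6.02% of all genes were. At an unadjusted p under 0.05, 3 of the 7 were higher, where 14.3% of all genes were. The immunoglobulin receptor Fcgr3 fell by 1.23 ± 0.23. Csf1r and Adgre1, both on this marker list, were at 0.51 ± 0.22 and 0.37 ± 0.32, with adjusted p of 0.142 and 0.476. The summed signal of the 14 markers was 2244 to 3470 on the erythroid and 1646 to 2381 on the epithelial arrays, and 4 of them, among them C1qa, lay above background on no array. Markers of mesenchyme and mesothelium were called higher in the erythroid captures in 5 of 8 tested, with 0 lower. Those of endothelium were in 1 of 4 (Tek) and those of megakaryocytes in 2 of 4 (Pf4 and Clec1b), where 6.02% of all genes were called higher. Of the 5 mesenchymal and mesothelial markers called, Col1a1, Col3a1 and Upk3b were at 0.47, 0.16 and 0.34 over pairs 1 and 2. Over pairs 3 and 4 they were at 2.78, 2.53 and 3.03. The other called markers were Acta2, at 0.89 and 1.94 in the 2 sets, and Tagln, at 2.56 and 1.14. The summed signal of the 10 mesenchymal and mesothelial markers was 25991 to 45913 on the erythroid and 6175 to 23822 on the epithelial arrays. The part of these cells in the lysosomal values was not tested.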

How the data were processed

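Per the labels, RNA of 10 to 39 ng from laser-captured cells was amplified in 2 cycles and hybridised to 8 arrays. The authors deposited MAS5 signal intensities, scaled to a trimmed mean of 500, and GCOS, MAS5 and affy are the tools in the submitters' processing notes, with versions not given in the sources used here. Of 22690 probe sets, 64 were controls, 20380 named 1 gene, 691 several and 1555 none, from the platform annotation updated by gene ID for 20351.

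Here log2(signal + 8.14) was quantile normalised. Probe sets at or above the array median on at least 4 of 8 arrays (11449) were fitted in limma 3.58.1 (R 4.3.3) with pair and cell type as terms and a variance trend, and p-values, two-sided, were adjusted by Benjamini-Hochberg over all of them. Differences are erythroid minus epithelial on the log2(signal + 8.14) scale, which understates changes of dim genes. For each gene the tested probe set brightest on average was used, and the 4 pairs limit the precision. A probe set was called above background when it passed the 95th percentile of 117 probe sets of olfactory, vomeronasal, taste, keratin-associated and defensin genes on that array.

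Pairs come from the labels' protocols (shared slides), not from the data: deviations from the group means correlated at 0.31 to 0.54 within pairs, but also at 0.28 to 0.35 between the 2 pairs of a set (1 and 2, or 3 and 4), and at -0.45 to -0.29 across sets. Replicates were pools of yolk sacs, so p-values measure the spread between pools. The steps were tested on simulated data with independent noise and independent pairs. The likeness within sets of pairs was not simulated, so that test does not cover it. The members, lists and tests were chosen with earlier results of these data known. Every member could be named. Signals on every array were given for the 2 members of each role with the largest difference and any called higher, and from other lists the 2 largest calls in each direction, any gene behind a count of 5 or fewer, and Klf1, Gata1, Cubn, Apoa1, Csf1r and Adgre1. The array values of Hexa, Gusb, Lamp1 and Lamp2, the sequences shown, and Hbb-bh1, Tfeb, M6pr, Igf2r and C1qa were picked after their values were seen. Alternatives covered the pair term, scaling, offset, filter, variance trend, each pair left out, each set of pairs, and the choice of probe set.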

Additional observations from a re-analysis of the deposited data

Results flagged for a closer look

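In 3 of 76 groups of 4 arrays (38 members in 2 cell types), 1 array stood apart from the other 3 by more than Dixon's 95% critical ratio, and chance alone marks about 1 group in 20. The epithelial array of pair 4 was at 8.62 (normalised log2 signal) for Man2b1, with the others between 8.12 and 8.17. For Psap the erythroid array of pair 1 was at 8.54, with the others between 9.15 and 9.21. For Sgsh the epithelial array of pair 3 was at 4.75, with the others between 7.07 and 7.52. None of these 3 genes was called.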

How the results depend on the processing

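The 17 members called lower became 2 with no replicate block (no pair term), 2 without a variance trend, 11 without the filter on low values, 8 in pairs 1 and 2 alone, 7 without x, s and a probe sets (27 members tested) and 7 to 13 with each pair left out. For the fits without the filter and without x, s and a probe sets, the share of all genes called was not computed. Their member counts therefore stand without that background. The members called lower were 14 to 19 under the other alternatives, and 0 members were called higher under any. Only Manba kept its call in all. The median of -0.56 moved to -0.76 with arrays centred on their medians. Over all probe sets, 881 lower and 709 higher became 285 and 160 with no replicate block, 339 and 179 without the trend, 332 to 829 and 202 to 690 with each pair left out, 1457 and 1402 in pairs 3 and 4 alone, and 520 and 376 without x, s and a probe sets. There were 543 lower in pairs 1 and 2 alone and 455 higher with arrays centred on their medians. The difference between sets of pairs was called for 1 member with that centring. Lipa turned to 0.20 without x, s and a probe sets, where another probe set is read, and Lamp2 to -0.58 as the mean of its probe sets. The cause of the other changes was not tested. A median signal of 81.5 to 127 limits what dim genes such as Galc and Cln3 can show.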
